A study of Mus musculus with 2 samples.

Results

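The TRIM (tripartite motif) genes were examined on expression arrays of mouse macrophages grown from bone marrow. All genes whose symbol is Trim followed by a digit were taken, which gave 61 of the 19505 genes with a value. Of these, 10 were interferon-inducible members of a list of 14, and 51 were other TRIM genes, among them the pseudogene Trim30e-ps1. Trim5, Trim30c, Trim34a and Trim34b of the inducible list, and Trim17, Trim23, Trim60 and Trim61, had no probe set annotated to that gene alone. They were not analysed here. Probe sets annotated to several genes were not used.

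There were 2 arrays. The LysM(+) array held macrophages of the genotype labelled LysM (+);MC4RTB/TB, and the TB/TB array held those labelled MC4RTB/TB, so homozygosity for the TB allele of the melanocortin 4 receptor gene was common to both. In background terms, a TB allele carries a transcription stop that Cre recombinase excises, and LysM is a widely used driver of Cre in myeloid cells; the labels spell out neither. Marrow cells were grown in medium with 10% fetal bovine serum, with the macrophage growth factor M-CSF (25 ng/mL) added on day 0 and again on day 3, and were used from day 5, per the labels' protocols. The labels give no age, sex or strain background of the mice and do not say whether marrow was pooled. With 1 array per genotype no difference below has a replicate check, no test was possible, and each value describes these arrays rather than the genotypes; their number limits the precision. In bulk RNA, fewer cells of a type and less RNA per cell cannot be told apart.

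TRIM proteins are built from a RING domain, B-boxes and a coiled coil, and most act as ubiquitin ligases. Many take part in antiviral defence: some sense or bind viral components, others switch the signalling of nucleic acid sensors and Toll-like receptors up or down. A subset is itself induced by interferon, through promoter elements bound by interferon regulatory factors. Members outside that subset work in chromatin silencing, on the cytoskeleton, at membranes and in early development.

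Many promoter windows of the inducible members carry the element through which interferon acts, and the matched stretches are shown because those of some paralogs are the same or nearly so. RefSeq windows (build GRCm38.p6), running from 250 bases before to 50 bases after each annotated start, were searched on both strands for GAAANNGAAA, the core of the interferon-stimulated response element, with overlapping matches allowed. A match was found in 8 of 13 inducible genes with a window (61.5%), in 1 of 40 other TRIM genes (2.50%), and in 3.99% of all 27025 genes of the table. Trim25, Trim56, Trim30b, Trim30c and Trim34b had no match in these windows, which says only that these letters are not there. Windows were found for 46 of the 61 measured members; Trim14 is among the 15 not in the table. The 30-base stretches below, on the strand of the gene, are those of the measured inducible members with a match, and capitals mark the match, which reads TTTCNNTTTC where it lies on the other strand.
Trim30a, first start, chr7:104465210-104465239, minus strand: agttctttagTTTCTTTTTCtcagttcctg
Trim30a, second start, chr7:104446104-104446133, minus strand: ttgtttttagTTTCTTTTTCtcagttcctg
Trim30d, chr7:104507871-104507900, minus strand: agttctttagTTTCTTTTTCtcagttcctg
Trim12a, chr7:104315466-104315495, minus strand: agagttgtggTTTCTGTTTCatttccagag
Trim12c, chr7:104353359-104353388, minus strand: agagttgtggTTTCTGTTTCatttccagct
Trim21, chr7:102565447-102565476, minus strand: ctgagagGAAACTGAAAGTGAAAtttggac
Trim26, chr17:36836979-36837008, plus strand: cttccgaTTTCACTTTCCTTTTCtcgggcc

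Trim30a and Trim30d shared all 30 letters of this stretch, and their 300-base windows aligned at 90.8% identity. Trim12a and Trim12c shared 28 of 30 letters, with 72.6% identity over the windows, against a median of 47.7% over the 55 pairs of 11 chromosome 7 TRIM genes compared. In Trim30a (first start), Trim30d and Trim12c the match began before the annotated start, at positions -36, -41 and -29. In Trim21 and Trim12a it lay just past the start, at the 14th and 11th transcribed base.

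Array values are the deposited log2 values, and differences are LysM(+) minus TB/TB on that scale. Base 2 is inferred from the authors' RMA method, and every fold depends on that reading. A gene is said to be called if the arrays differed by 1.5-fold or more (0.58 on the log2 scale) and its mean over both arrays reached 6.12, the median of all genes, termed the floor. Probe sets differ in how strongly they bind, so values are compared between arrays and not between genes. Of the 61 TRIM genes, 29 had a mean at or above the floor, 9 of them inducible. In 34 of the 61, of which 1 was inducible, neither value exceeded 6.81, the highest of the background control probe sets. The same held for 10800 of all 19505 genes, a similar share.

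The interferon-inducible TRIM genes were mostly alike on both arrays, and Trim30a was the one called. Trim30a (Entrez 20128), which restrains Toll-like receptor signalling by promoting loss of the TAB2 and TAB3 adaptors, had 10.98 in LysM(+) and 11.69 in TB/TB macrophages. Its difference of -0.71 is a 1.63-fold lower value in LysM(+). Thus 1 of the 9 inducible members at or above the floor was called lower and 0 were called higher, beside 4.38% of all 9753 genes at or above the floor called lower and 10.6% called higher. A single gene of 9 gives no basis for setting the list apart from that background.

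Trim30d, whose stretch is letter for letter that of Trim30a, had 9.23 on LysM(+) and 9.14 on TB/TB, a difference of 0.09. Trim30b was dim, at 4.92 and 5.44 (difference -0.52). Both values were within the background control range, so it cannot be read as expressed on either array. Trim30 copies are similar enough that probes can pick up more than 1 of them, and how far that touches these values was not tested. No TRIM gene had the same pair of values as another gene (0 of 61).

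The Trim12 genes, mouse relatives of the retroviral restriction factor TRIM5, also parted. Trim12c, which promotes interferon and NF-kB signalling, had 8.54 on LysM(+) and 8.88 on TB/TB (difference -0.34). Trim12a had 11.22 and 11.10 (difference 0.11). Neither difference reached 1.5-fold, and probes of these paralogs can share signal as well.

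Of the other inducible members, Trim25, the ubiquitin ligase that activates the RNA sensor RIG-I, had 11.81 and 11.85 (difference -0.04). Trim14, an adaptor in mitochondrial antiviral signalling, had 11.65 and 11.85 (difference -0.20). Trim56, which acts on cGAS and STING, had 9.52 and 9.40 (difference 0.12). These 3 differences were all within 1.5-fold, Trim14 lower and Trim56 higher in LysM(+).

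Trim21, the cytosolic antibody receptor, was the inducible member with the highest difference, with 8.36 on LysM(+) against 8.10 on TB/TB (difference 0.26). Trim26, which limits IRF3 in the nucleus, went the other way, with 6.84 against 7.16 (difference -0.32), and its LysM(+) value lay just above the background control range. Of the 6 measured inducible members with a promoter match, 3 were lower and 3 higher in LysM(+), with 1 called. After loess, the higher differences of Trim12a and Trim30d shrank to 0.02 and 0.001.

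**Figure D1:**
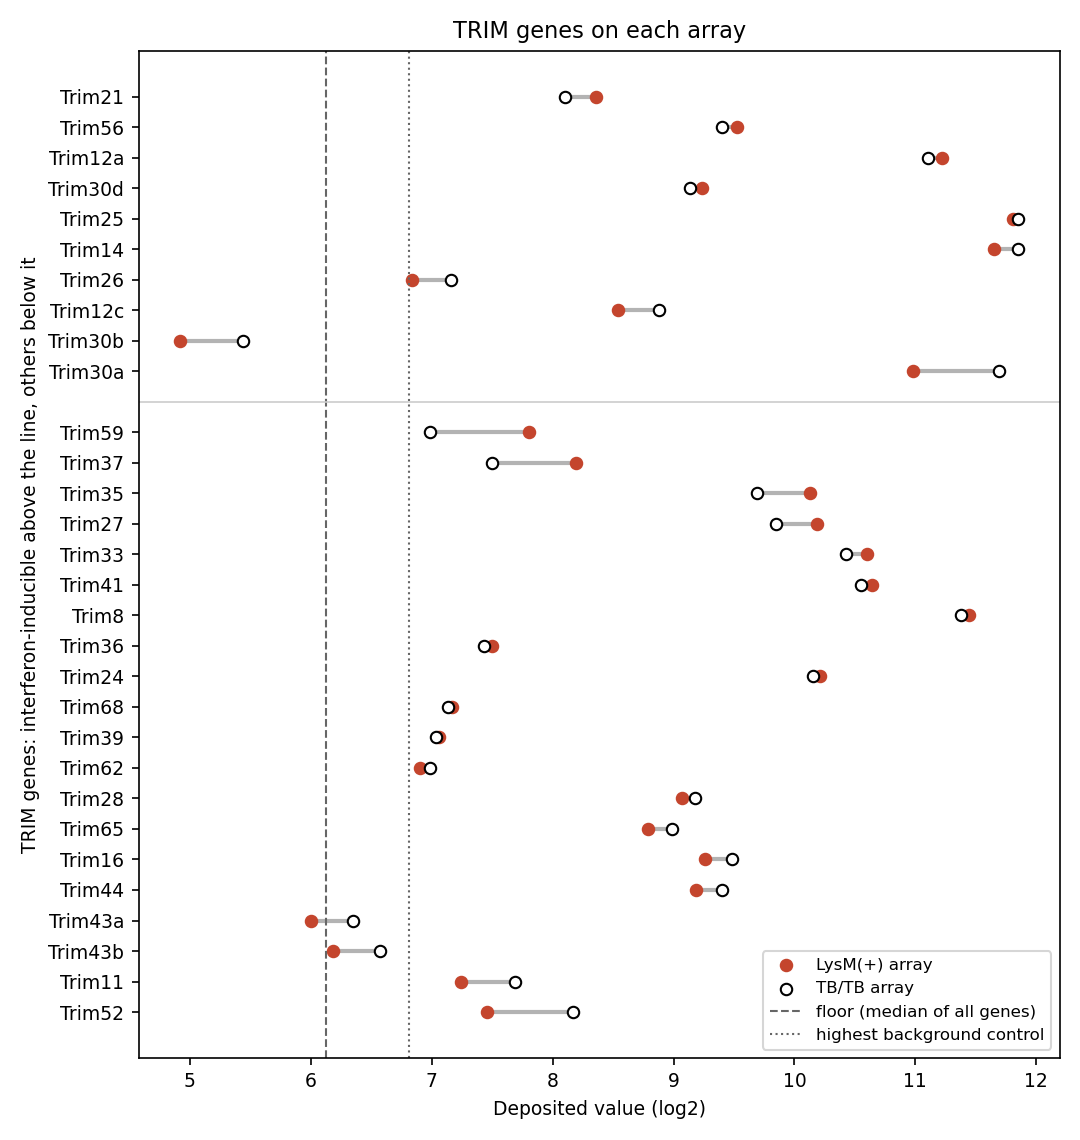
Deposited log2 values of TRIM genes on the LysM(+) array (filled points) and the TB/TB array (open points); the 10 interferon-inducible genes stand above the line and the 20 other genes with a mean at or above the floor below it. The longest connecting bars are those of Trim59, Trim52, Trim30a and Trim37, and Trim30b lies left of both the floor (6.12) and the highest background control (6.81).

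The inducible members and the rest of the family had similar median differences. Their median difference was -0.12 over 10 genes, that of the other TRIM genes -0.09 over 51, inducible minus other -0.03. At or above the floor the medians were -0.04 over 9 genes and 0.03 over 20, beside 0.07 over all 9753 genes. The gap between the 2 medians was -0.15 after quantile normalization and -0.18 after loess, and turned to 0.048 when the inducible list was cut to the 3 measured of Trim21, Trim25, Trim30a and Trim34a. The median size of a difference, without its sign, was 0.20 over the inducible members, 0.21 over the other TRIM genes and 0.25 over all genes at or above the floor.

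**Figure D2:**
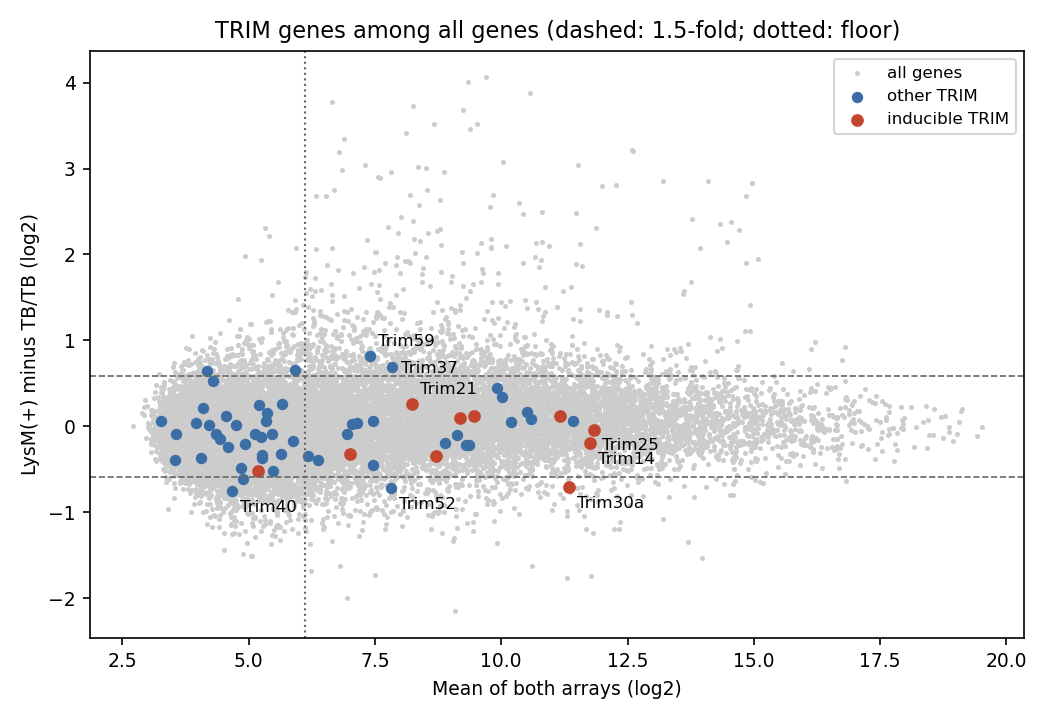
Difference, LysM(+) minus TB/TB in log2, against the mean of both arrays for all 19505 genes (grey), the inducible TRIM genes (red) and the other TRIM genes (blue); dashed lines mark 1.5-fold and the dotted line the floor. The TRIM genes lie between -0.76 and 0.81, while genes of the series as a whole reach 4.06.

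Among the 20 other TRIM genes at or above the floor, 2 were called higher and 1 lower in LysM(+), against the 10.6% and 4.38% of all genes given above. Trim59 (Entrez 66949), a membrane-anchored member reported to be abundant in dividing and tumour cells, had 7.80 on LysM(+) and 6.99 on TB/TB. It was 1.76-fold higher, the largest difference in the family (0.81), and its TB/TB value was close to the highest background control (6.81). Trim37 (Entrez 68729), a ubiquitin ligase that controls centrosome assembly and peroxisome import, had 8.19 and 7.50 and was 1.62-fold higher. Trim52 (Entrez 212085) had 7.45 and 8.17 and was 1.64-fold lower. No member was past 2-fold in either direction (0 genes). The share of all genes past 2-fold was not counted, so this does not set the family apart. Just inside the threshold were Trim30a and Trim37, at 1.63-fold and 1.62-fold, and just outside it Trim11 (7.24 and 7.69) and Trim35 (10.13 and 9.69), both at 1.36-fold.

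The cell division list was included because earlier results of these arrays had shown it as their strongest difference. Its first place among the lists examined here was therefore known beforehand and is not a finding. All 14 measured members were called higher in LysM(+), beside 10.6% of all genes, and their median difference was 2.89. The values of Trim59 and Trim37 moved in that direction, at differences of 0.81 and 0.69, below the smallest difference in the list, 1.27. That smallest difference was of Birc5, whose TB/TB value (6.50) lay within the background control range. The TB/TB values of Top2a, Ccna2, Cdk1 and Bub1 lay there too. Whether the share of dividing cells bears on these TRIM values was not tested.

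The chromatin members were nearly level. Trim24, a co-regulator of nuclear receptors, had 10.21 on LysM(+) and 10.16 on TB/TB. Trim33, which acts in SMAD signalling, had 10.60 and 10.43. Trim28, known as KAP1, the scaffold that silences retroelements with zinc finger proteins, had 9.07 and 9.18. None of these 3 differences passed 0.17 in size, and the sign of the Trim24 difference (0.06) turned to -0.04 under rescaling. Trim66 was below the floor on both arrays. Of 9 measured genes in the list of KAP1 and its silencing partners, 3 were called higher and 0 lower, beside 10.6% and 4.38% of all genes at or above the floor. These were the heterochromatin protein genes Cbx5 (10.46 and 9.26), Cbx1 (9.08 and 8.07) and Cbx3 (13.82 and 13.19).

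Further members outside the inducible list and the role groups were above the background controls on both arrays. Trim8, which promotes NF-kB signalling, had 11.44 and 11.38, and Trim41 had 10.64 and 10.55; both signs turned under rescaling. Trim27, a ligase of endosomal sorting and of NF-kB control, had 10.19 on LysM(+) and 9.85 on TB/TB, a difference of 0.34. Trim35, linked to cell death in the haematopoietic lineage, differed by 0.44. Trim65, which activates the RNA sensor MDA5, had 8.79 and 8.98. Trim16, which acts on damaged lysosomes, had 9.26 and 9.48, and Trim44 had 9.18 and 9.41. The last 3 had differences between -0.22 and -0.19.

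The remaining members at or above the floor were Trim36, Trim68, Trim39 and Trim62, with differences between -0.09 and 0.06, and the embryo genes Trim43a and Trim43b. Trim43a differed by -0.35 and Trim43b, at 6.18 and 6.57, by -0.39, with all values within the background control range, so neither can be read as expressed. All 4 measured members with NHL repeats (Trim2, Trim3, Trim32 and Trim71) and 6 of the 7 with a COS box, the motif that binds microtubules, were within the background range on both arrays; Trim36 was the exception. Of the members below the floor, 4 were past 1.5-fold, and all lay within the background control range: Trim40 (4.29 and 5.05) and Trim2 (4.59 and 5.20) were lower in LysM(+), and Trim47 (6.24 and 5.59) and the pseudogene Trim30e-ps1 (4.49 and 3.85) were higher. The other below-floor members had differences between -0.52 and 0.53. How many of all genes below the floor were past 1.5-fold was not counted.

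The wider interferon response was lower in LysM(+) in more of its genes than the inducible TRIM group. Of 27 measured genes in that list, 25 were at or above the floor, 11 were called lower and 0 higher in LysM(+), against the 4.38% of all genes called lower. The median difference was -0.56. The count includes Ifit2, whose values (5.93 and 6.52) did not exceed the highest background control and whose difference of -0.59 fell short of 1.5-fold under centring, quantile normalization and loess. Irf7 and Stat2, at -0.58 and -0.56, passed it under the last 2 of these, and the count ran from 10 to 12 over the scalings. Usp18, which shuts off interferon receptor signalling, had 8.38 and 9.72 (difference -1.34). Rsad2, the antiviral enzyme viperin, had 8.42 and 9.72 (difference -1.30). Ifit3 had 11.64 and 12.83, and Xaf1 had 11.79 and 12.90.

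The same list held genes that went the other way, as did 4 of the 10 inducible TRIM genes. Among those 4, the differences of Trim12a, Trim30d and Trim56 shrank to 0.02, 0.001 and 0.03 after loess. Ifit1 had 8.62 and 8.33, Eif2ak2, the RNA-activated kinase PKR, 10.86 and 10.58, and Parp14 10.67 and 10.46, each higher in LysM(+) by less than 1.5-fold. Genes with and without a promoter match to the response element had similar counts: of 9 measured interferon response genes with a match 3 were called lower, and of 10 without a match 3 were called lower, with median differences of -0.56 and -0.40, beside 4.38% of all genes. The other 8 measured genes of the list had no window in the table and held 5 of the 11 calls, so this comparison covers only part of the list. The difference between this list and the inducible TRIM genes could not be tested with 1 array per genotype.

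**Figure D3:**
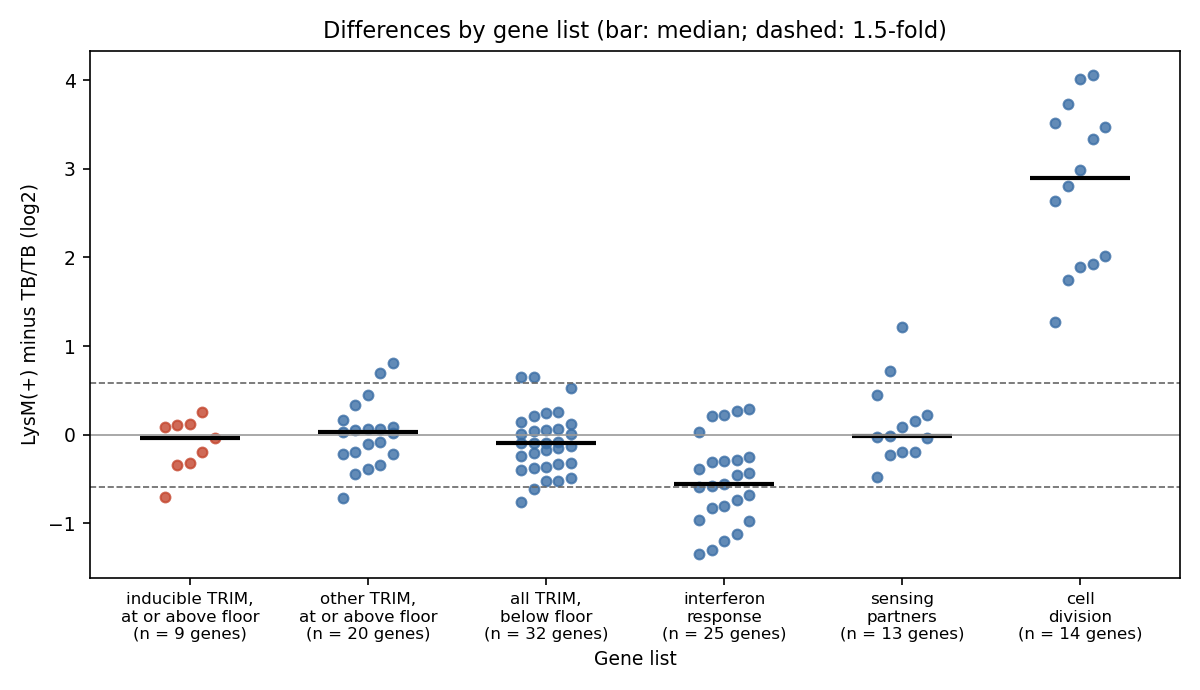
Differences, LysM(+) minus TB/TB in log2, by gene list; each point is a gene, the bar is the list's median and dashed lines mark 1.5-fold. The inducible TRIM genes lie around -0.04 and the other TRIM genes at or above the floor around 0.03, the interferon response genes around -0.56 and the cell division genes around 2.89.

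The sensors, adaptors and kinases on which TRIM proteins act were all at or above the floor (13 of 13 measured) with a median difference of -0.01. Called higher in LysM(+) were 2 of them and called lower 0, near the 10.6% and 4.38% of all genes, so the counts say nothing about the list. Cgas, the DNA sensor, had 8.07 on LysM(+) and 6.85 on TB/TB (2.33-fold), the latter just above the background control range. Tab3, the adaptor that Trim30a acts on, had 9.76 and 9.04 (1.65-fold). Tab2, the other Trim30a target, had 13.06 and 13.07.

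The symbol rule misses 4 TRIM proteins named otherwise, and 1 of them had a larger difference than any Trim gene. Mid1, a microtubule-associated ligase also called TRIM18, had 10.90 on LysM(+) and 8.72 on TB/TB, 4.54-fold higher. Pml, the interferon-inducible organiser of nuclear bodies (TRIM19), had 10.93 and 11.29 (difference -0.36). Mefv, the pyrin gene (TRIM20), had 6.11 and 5.52, and Mid2 3.27 and 3.34, both pairs within the background control range.

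In the genome, 13 of the 61 members lie on chromosome 7, and neighbours there did not move as a block. In RefSeq gene order, Trim6, Trim34a, Trim5, Trim12a, Trim34b, Trim12c, Trim30b, Trim30c, Trim30a, Trim30d and Trim30e-ps1 form one cluster. Of its 4 members at or above the floor, Trim12c and Trim30a were lower in LysM(+). Trim12a and Trim30d were slightly higher, by 0.11 and 0.09, and by only 0.02 and 0.001 after loess. Trim30a adjoins Trim30d with 0 genes between them. The chromosome 17 members Trim39, Trim26, Trim15, Trim10, Trim40 and Trim31 were dim apart from Trim39 (7.06 and 7.04) and Trim26. On chromosome 11, Trim47 and Trim65 are adjacent and had differences of 0.65 and -0.19, the former from background-level values.

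**Figure D4:**
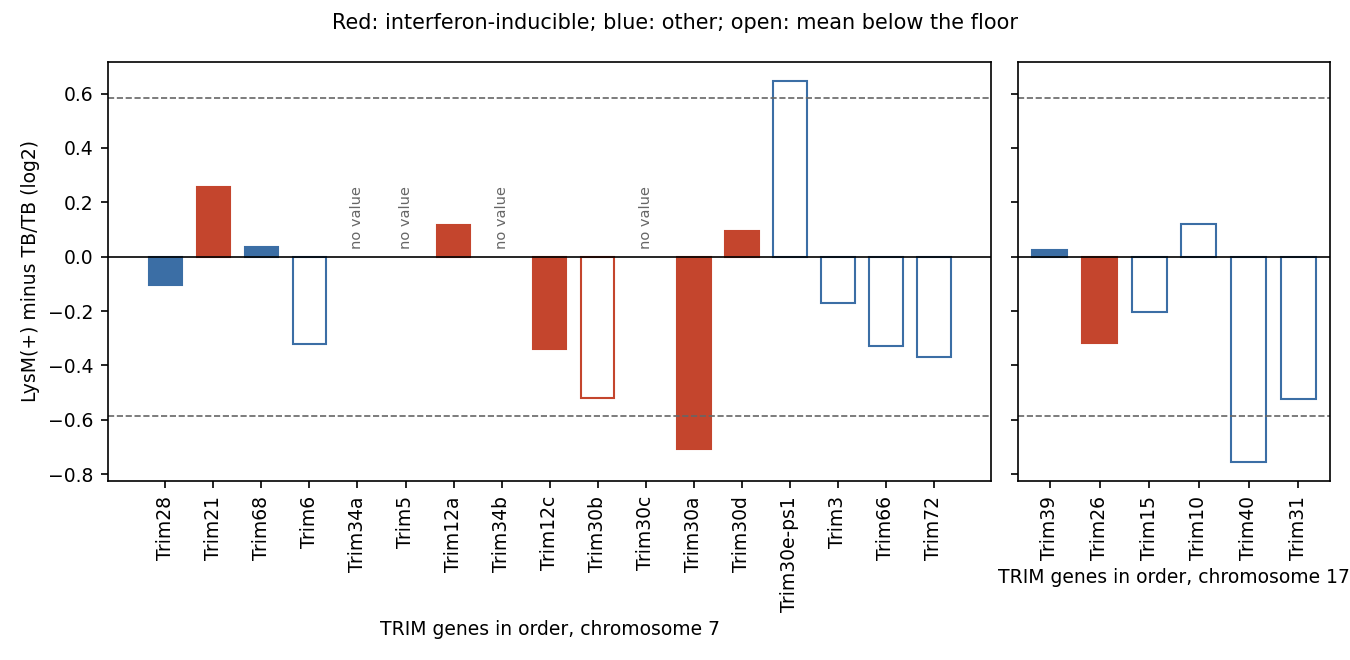
Difference, LysM(+) minus TB/TB in log2, of TRIM genes in RefSeq order on chromosomes 7 and 17; red bars are interferon-inducible genes, blue bars others, and open bars have a mean below the floor. Trim30a (-0.71) stands beside Trim30d (0.09).

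Macrophage markers were bright on both arrays: all 9 measured were at or above the floor, none was called (0 genes), and values ran from 12.41 to 18.86 on LysM(+) and from 12.98 to 19.04 on TB/TB. Among neutrophil markers 7 of 9 genes had the higher value in LysM(+) and 3 were called higher, beside 5635 of 9753 genes at or above the floor with the higher value there and 10.6% called higher. Neutrophil marker values ran from 5.87 to 16.32 on LysM(+) and from 5.82 to 15.92 on TB/TB, and the median difference was 0.40. Of those called, Elane and Retnlg had TB/TB values within the background control range. Camp, also counted as higher, was within it on both arrays, and Mpo and Csf3r were lower in LysM(+). All 6 progenitor, 4 B cell and 5 of 6 T and NK cell markers were within the background control range on both arrays. So were 5 of 6 dendritic cell and 2 of 5 fibroblast markers, and 1 of those 5 fibroblast markers was called lower, beside 4.38% of all genes. What neutrophil RNA contributes to the TRIM values was not tested.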

How the data were processed

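Total RNA of 2 macrophage cultures, 1 per genotype, was hybridised to whole-transcript arrays. Per the submitters' processing notes, the authors made the deposited log2 values per probe set with RMA in the Affymetrix Expression Console software; the sources used here give neither versions nor a log base. Values ran from 2.57 to 19.5, an upper end above the usual RMA range, so a further transformation is possible. The platform annotation named 1 gene for 19572 of 28846 probe sets, which were matched by Entrez ID to RefSeq (GRCm38.p6), giving 19505 genes, averaging probe sets; each TRIM gene had 1.

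No test was run. Alternatives were median centring, quantile normalization, loess (span 0.4), the brightest probe set, other floors, a 2-fold threshold and other inducible lists. Members and lists were chosen with earlier results of these data known; the inducible list came from general knowledge. Named were all measured inducible members, other called TRIM genes, the 3 brightest per role group, those nearest the threshold, and up to 6 called genes per pathway list. Further ones were named after their values were seen. These were Ifit1, Ifit2, Irf7, Stat2, Eif2ak2, Parp14, Tab2, Birc5, Top2a, Bub1, Elane, Retnlg, Camp, Mpo, Csf3r and all other TRIM genes. The calling step was run on simulated data with planted differences larger than any in the TRIM family and an assumed noise level. That run checked how the rule was applied and says nothing of how reliable the TRIM calls are. Analyses used Python 3.11.15, pandas, statsmodels and Biopython.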

Additional observations from a re-analysis of the deposited data

How the results depend on the processing

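Trim30a and Trim52 stayed called lower, and Trim59 and Trim37 called higher, under median centring, quantile normalization, loess and the brightest probe set. Only quantile normalization and loess could have changed these calls. Centring removed a median of -0.006, too little to do so, and each TRIM gene had 1 probe set, so choosing the brightest changed none of their values. No scaling moved the median of all genes by 0.1, but the counts over all genes did move. Of 9753 genes at or above the floor, 1031 were called higher and 427 lower as deposited. After loess these counts were 848 and 520, so the shares given beside each list hold for the deposited values only. Over these settings Trim30a ran from -0.80 to -0.70 and Trim59 from 0.79 to 0.82, and 5 uncalled TRIM genes changed sign. The gap between the inducible and other medians was -0.15 after quantile normalization and -0.18 with loess, and reversed to 0.048 with the inducible members named in the rule. Over members at or above the floor, the median of the other TRIM genes reversed to 0.029 and that of the differently named TRIM proteins was 0.91. The latter rests on 2 genes with opposite signs, Mid1 (2.18) and Pml (-0.36). Over all measured members, the mean of the differently named proteins was 0.58, against a median of 0.26. The sensing partners' mean was 0.13, against a median of -0.01. Without a floor 3 other TRIM genes were lower and 4 higher. At 2-fold 0 inducible genes were lower, and 0 other TRIM genes were lower or higher. The matching shares of all genes were not counted for these settings. The causes of the changes in this paragraph were not tested, beyond what fewer genes explain by construction. Leaving out the pseudogene Trim30e-ps1, chosen after seeing the data, changed no direction and no count. The pseudogene is below the floor and was not called, so the counts could not have changed. No paired analysis was possible because each genotype has 1 array. Background limits 34 of the 61 TRIM genes, a share similar to the 10800 of all 19505 genes.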
